A study of Rattus norvegicus with 9 samples.

Results

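Kidneys exposed to ischaemia-reperfusion (I/R), in which renal blood flow is stopped and then restored, were compared with kidneys of sham-operated rats. The comparison takes 6 of the 9 libraries of the study: 3 labelled as the I/R model and 3 labelled sham, chosen by their labels alone and not by any measured value. All animals were labelled wild-type Sprague-Dawley rats, 6 to 8 weeks old and 200 to 220 g in weight, housed under a light and dark cycle. The sham animals had surgery without ischaemia, and the I/R animals had 45 min of ischaemia by clamping of the left renal artery, followed by reperfusion. Neither group received rapamycin, which the other 3 libraries of the study concern. The sources disagree on the sex of the animals, given as male in one place and as both sexes in another. Reperfusion is given as 3 or 7 days without saying which applies to the sequenced kidneys, so the time is unsettled. The sources used here do not give the time of day of tissue collection, the region of kidney taken or whether the opposite kidney was left in place. The replicates carry numbers and are not stated to be separate animals. Every p-value therefore measures only the spread between samples, which may be technical. In the main fit that spread was estimated from all 9 libraries, those with rapamycin included.

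As background, the kidney filters blood through podocyte-covered capillaries and then reclaims most of the filtrate along the nephron. The proximal tubule takes up sodium, glucose, phosphate, amino acids and protein and burns fatty acids to do so. The loop of Henle and its thick ascending limb build the medullary salt gradient, and the distal tubule and collecting duct adjust sodium, potassium, acid and water. After ischaemia, the straight part of the proximal tubule is the classic site of damage, surviving tubule cells lose and regain their differentiated state, and matrix may build up around tubules and vessels when repair is incomplete. The lists used below follow that order: filter, tubule segments, vessels and other cells, then matrix, injury, metabolism, immunity, clock and protein synthesis.

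Poly(A) RNA was read in pairs of 150 bases, and the 6 libraries held between 51586284 and 60538627 counted reads. Counts were scaled to CPM, each library's share of its own total, with TMM factors, and log2 fold changes are I/R over sham throughout, so that a positive value is higher in I/R. The source is labelled kidney and also renal tubular cell. Markers of cells outside the tubule were present in all 6 libraries, among them Nphs1 of podocytes, Pecam1 of endothelium (113 to 118 CPM) and C1qa of macrophages (14.5 to 24.2 CPM), so the RNA was not of tubular cells alone. Some libraries stood apart from their group. On the first principal component, which carried 31.2% of the variance, sham 3 and I/R 1 lay at 60.2 and 42.03 and the other 4 libraries between -48.5 and -1.37, so the component did not separate the groups. Fos, an immediate early gene, stood at 34.4, 199.8 and 512 CPM in sham 1, 2 and 3 and at 17.5, 259.5 and 316 in I/R 1, 2 and 3. Haemoglobin transcript Hba-a1, which marks retained blood, stood at 178, 145 and 1513 CPM in sham and 736, 1891 and 1869 in I/R. Among 10599 genes above 5 CPM, I/R 3 exceeded each of the other 5 libraries more than 1.5-fold at 126 genes and sham 3 did so at 65, against 2 to 10 in the others. In bulk tissue, fewer cells of a type and less RNA per cell cannot be told apart.

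Between I/R and sham, 10 of 17335 genes passed an adjusted p of 0.05 in edgeR (0.0577%), 6 higher in I/R (0.0346%) and 4 lower (0.0231%). Genes for medium-chain acyl-CoA synthetases and for basement membrane proteins made up most of those that rose, and a thick ascending limb glycoprotein had the largest fall. Acsm3, Acsm5 and Acsm2, mitochondrial enzymes that attach coenzyme A to medium-chain fatty acids and aromatic acids, all rose. Acsm3 was at 144, 186 and 165 CPM across the sham libraries and 449, 508 and 363 across the I/R libraries, a log2 fold change of 1.42 ± 0.17 (SE) with an edgeR adjusted p of 0.019. Acsm5 was at 7.25, 8.32 and 9.56 CPM across the sham libraries and 17.1, 25.8 and 36.3 across the I/R libraries, a change of 1.66 ± 0.23 with an adjusted p of 0.044. Acsm2, by the ID ENSRNOG00000042084, was at 25.03, 24.7 and 19.6 CPM across the sham libraries and 45.6, 64.1 and 59.8 across the I/R libraries, a change of 1.29 ± 0.15 with an adjusted p of 0.019. For each of these enzymes the lowest I/R library lay above the highest sham library, and I/R 1 held the lowest I/R value of Acsm5 and Acsm2 but not of Acsm3. A second ID that carries the name Acsm2, ENSRNOG00000064951, was at 1090, 1482 and 1639 CPM across the sham libraries and 1335, 1475 and 1204 across the I/R libraries, and its groups overlapped with a log2 fold change of -0.07 ± 0.15. These enzymes are close paralogs, and how reads that match more than 1 of them were counted is not given in the sources used here, so the split between the Acsm2 IDs is uncertain.

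Col15a1, which encodes a collagen of the basement membrane zone, was at 5.90, 7.38 and 8.81 CPM across the sham libraries and 23.2, 21.8 and 23.4 across the I/R libraries. It rose by 1.63 ± 0.16 on the log2 scale with an edgeR adjusted p of 0.0119, and its I/R values lay close together. Lamc3, a laminin gamma chain, was at 43.2, 44.9 and 47.3 CPM across the sham libraries and 71.04, 84.9 and 75.3 across the I/R libraries and rose by 0.77 ± 0.11 (adjusted p = 0.044). Serpine2, a secreted inhibitor of serine proteases also called protease nexin 1, was at 13.4, 11.1 and 11.1 CPM across the sham libraries and 28.5, 20.9 and 22.8 across the I/R libraries and rose by 1.02 ± 0.13 (adjusted p = 0.0426). Each of these 3 genes had non-overlapping groups. Gp2, a membrane-anchored glycoprotein related to uromodulin, was at 176, 244 and 284 CPM across the sham libraries and 51.9, 83.04 and 57.02 across the I/R libraries. Its log2 fold change was -1.88 ± 0.21 with an adjusted p of 0.019, and the highest I/R library lay under the lowest sham library. Gstm7, a glutathione transferase of the mu class, was at 25.7, 29.8 and 26.7 CPM across the sham libraries and 9.85, 14.1 and 13.7 across the I/R libraries, a log2 fold change of -1.13 ± 0.15 with an adjusted p of 0.044. LOC100911413, described in the authors' deposited table as a protein like deleted in malignant brain tumors 1, was at 29.3, 33.03 and 34.2 CPM across the sham libraries and 11.7, 15.6 and 13.2 across the I/R libraries, a log2 fold change of -1.25 ± 0.13 with an adjusted p of 0.0119. Apol11a, of the apolipoprotein L family, was at 21.9, 24.8 and 26.2 CPM across the sham libraries and 14.2, 14.02 and 11.4 across the I/R libraries, a log2 fold change of -0.88 ± 0.12 with an adjusted p of 0.044.

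**Figure D1:**
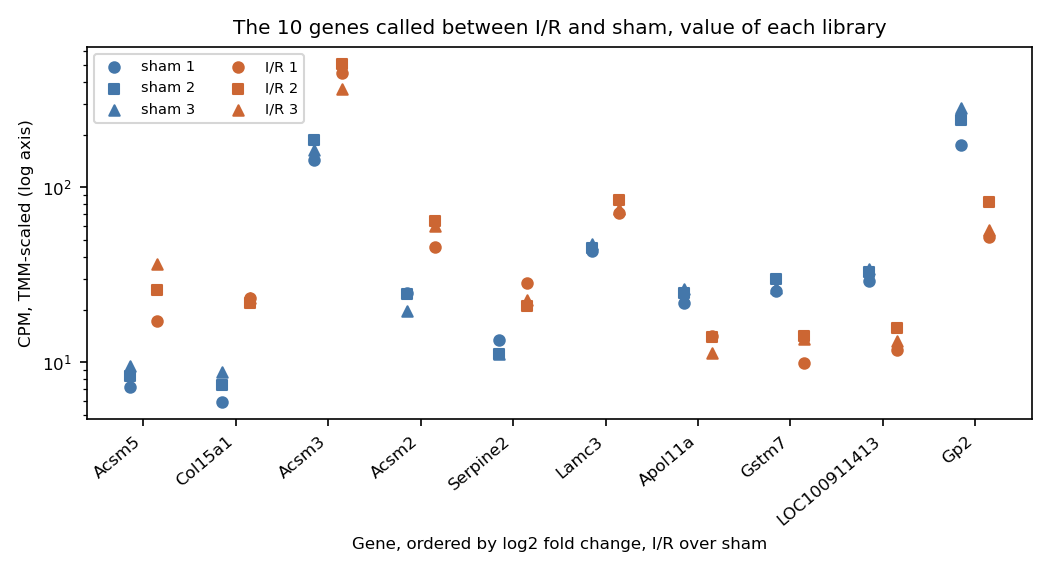
CPM of the 10 genes that passed the test, on a log axis, with one point for each library (blue, sham; orange, I/R; circle, square and triangle, replicates 1, 2 and 3). No gene has overlapping groups: Acsm5, Col15a1, Acsm3, Acsm2, Serpine2 and Lamc3 lie higher in I/R, and Apol11a, Gstm7, LOC100911413 and Gp2 lower.

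The count of called genes was sensitive to single libraries and to the tool. Leaving out sham 1 gave 3 called genes, sham 2 gave 0 and sham 3 gave 16. Leaving out I/R 1 gave 36, I/R 2 gave 4 and I/R 3 gave 0. When I/R 1 and sham 3 were both left out, 67 were called. DESeq2 called 239 of 17302 genes (1.38%), among them the 10 named above, which kept their sign in every alternative tried. Because of this, the lists below are described by counts at an unadjusted edgeR p under 0.05, which 1633 genes met (9.42%; 837 higher in I/R, 4.83%, and 796 lower, 4.59%), and by counts of genes whose groups do not overlap, 2535 in all (14.6%; 1288 with I/R above, 7.43%, and 1247 with I/R below, 7.19%). The shares at an unadjusted p under 0.05 over all genes also moved between fits. Without I/R 1 and sham 3, 6.33% were higher and 5.37% lower. With 1 library left out, 2.99% to 5.55% were higher and 3% to 5.04% lower. Counts within lists under these fits are to be read beside those shares. The median log2 fold change of all tested genes was 0.00. Lists shared genes and were not tested as sets, and 7 of the 50 lists held a called gene.

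Of the 10 called genes, 4 lay within one stretch of chromosome 1, with other measured genes between them. In the order of the authors' deposited table, a stretch of 9 measured genes ran from Gp2 through Umod, Acsm5, Acsm2 (ENSRNOG00000064951), RGD1559600, Acsm2 (ENSRNOG00000042084), AABR07005588.1 and Acsm3 to Eri2. Of these 9 genes, 6 had every I/R library above every sham library, 1 had every I/R library below, and 2 overlapped. Outside the stretch and within 1 Mb of it, 9 measured genes all overlapped between groups, with log2 fold changes from -0.11 to 0.17 and no unadjusted p under 0.17. The stretch is bounded by the first and last genes without overlap in this window, so the overlap of the flanking genes follows from where its ends were set. Umod, the uromodulin gene next to Gp2 and the main secreted protein of the thick ascending limb, was at 1808, 1657 and 1825 CPM across the sham libraries and 1367, 2047 and 2758 across the I/R libraries (log2 fold change 0.22 ± 0.28). Eri2, an exonuclease gene on the strand opposite to Acsm3, was at 67.8, 77.3 and 42.7 CPM across the sham libraries and 134, 109 and 89.5 across the I/R libraries (unadjusted p = 0.00517). The models of Acsm3 and Eri2 share 18192 bases on opposite strands, and RGD1559600 and Acsm2 (ENSRNOG00000042084) share 921. The strand setting of the counting is not given in the sources used here, so reads of Eri2 and Acsm3 cannot be told apart. AABR07005588.1, described in the deposited table as a THUMP domain protein, was at 51.4, 54.9 and 53.3 CPM across the sham libraries and 72.8, 69.4 and 57.5 across the I/R libraries (unadjusted p = 0.011). In the plot of neighbouring genes, the higher values without overlap lie within the stretch so bounded, and Gp2, which fell, lies at its edge.

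**Figure D2:**
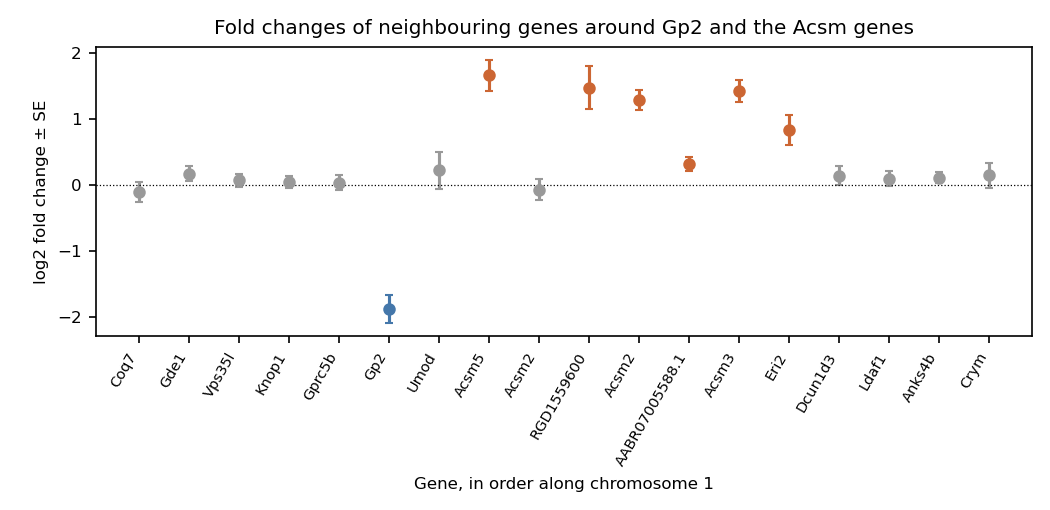
Log2 fold change, I/R over sham, with its SE for 18 neighbouring genes in their order along chromosome 1 (orange, I/R libraries all above sham; blue, all below; grey, overlapping). Gp2 lies at -1.88, Acsm5, RGD1559600, Acsm2 (ENSRNOG00000042084), AABR07005588.1, Acsm3 and Eri2 lie above 0 without overlap, Acsm2 (ENSRNOG00000064951) lies at -0.07 with overlap, and the 9 flanking genes lie between -0.11 and 0.17.

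The start regions of 3 genes of this stretch, 250 bases before to 50 after the RefSeq start in GRCr8, are shown because they sit in one neighbourhood and moved in both directions. Capitals mark AGGTCA or its other strand TGACCT, the half-site bound by nuclear receptors such as PPARA and HNF4A, in Acsm5 (chr1:183302259-183302558, plus strand, 2 matches) and Acsm3 (chr1:183564402-183564701, plus strand, 1 match). In Gp2 (chr1:183243905-183244204, minus strand) they mark the 1 match to TATAAA, the TATA box.
Acsm5: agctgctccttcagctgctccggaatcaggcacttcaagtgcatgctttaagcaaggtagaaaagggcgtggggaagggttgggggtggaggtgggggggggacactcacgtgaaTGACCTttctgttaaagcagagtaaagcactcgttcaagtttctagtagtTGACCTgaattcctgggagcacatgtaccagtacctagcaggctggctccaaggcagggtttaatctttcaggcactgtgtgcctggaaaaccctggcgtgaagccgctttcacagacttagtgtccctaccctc
Acsm3: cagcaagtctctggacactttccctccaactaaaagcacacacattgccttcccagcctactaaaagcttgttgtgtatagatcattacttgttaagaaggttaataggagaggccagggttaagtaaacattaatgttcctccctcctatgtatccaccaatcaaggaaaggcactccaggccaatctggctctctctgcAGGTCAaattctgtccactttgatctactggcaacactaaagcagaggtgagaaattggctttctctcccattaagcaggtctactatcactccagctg
Gp2: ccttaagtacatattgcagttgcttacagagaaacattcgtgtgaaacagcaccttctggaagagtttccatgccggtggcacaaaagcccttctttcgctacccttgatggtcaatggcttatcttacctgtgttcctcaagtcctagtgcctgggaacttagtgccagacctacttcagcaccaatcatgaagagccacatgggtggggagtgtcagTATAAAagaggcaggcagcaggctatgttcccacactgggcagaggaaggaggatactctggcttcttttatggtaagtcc
On either strand, AGGTCA was present in 15.7% and TATAAA in 14.3% of 27457 promoter windows of the same length, so a match of either kind is common. Acsm3 also held GTTAAT, a half-site of HNF1 factors, found in 7.37% of windows, and Acsm5 held the E-box CACGTG, found in 6.65%. The window under the name Acsm2, not shown, held none of the motifs searched, so the Acsm genes that rose did not all hold the AGGTCA half-site. Which of the Acsm2 IDs that window belongs to is not settled.

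Genes ranked just after the called ones by p had adjusted p values from 0.0589 upwards in edgeR and are given as values only. Among those higher in every I/R library were Dgkg, a diacylglycerol kinase (91.7, 65.7 and 83.1 CPM in sham, 137, 162 and 178 in I/R), Inmt, an indolethylamine methyltransferase (29.98, 32.6 and 26.9 in sham and 44.7, 60.3 and 62.9 in I/R), and Nrep, a small protein named for nerve regeneration (38.4, 39.3 and 30.6 in sham and 76.2, 55.4 and 60.6 in I/R). Rgn, regucalcin, was at 26.8, 26.2 and 18.5 CPM in sham and 37.1, 51.6 and 54.1 in I/R, and Klf13, a zinc finger transcription factor, at 14.6, 11.9 and 13.7 in sham and 26.8, 21.2 and 21.8 in I/R. Tob2, AY172581.7 (a mitochondrial tRNA), Fgfrl1, Cpt1a, Crybg1, Tmem51 and Rhbdf1 completed the 12, with log2 fold changes from 0.47 to 1.19. On the other side, Smoc1, a calcium-binding matrix protein that binds growth factors, was at 20.3, 25.2 and 25.2 CPM in sham and 12.1, 7.91 and 9.67 in I/R. Sult1a1, a phenol sulfotransferase, was at 23.5, 26.5 and 23.8 in sham and 11.6, 14.4 and 14.8 in I/R, and Frzb, a secreted Wnt antagonist, at 79.9, 81.4 and 82.7 in sham and 47.04, 55.1 and 59.04 in I/R. Etv5, an ETS factor downstream of FGF and RET signals, was at 29.2, 27.5 and 33.3 in sham and 18.6, 17.6 and 17.9 in I/R. Snf8, LOC100360413, Map3k7cl, Fetub, Cotl1, Bend5, Pltp and Eif1b followed, with log2 fold changes from -1.22 to -0.50. These 24 genes were ranked by this same contrast, so their separation is a description.

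Along the nephron, 12 of 13 podocyte genes had lower fitted values in I/R, and the medians of the 7 tubule lists ran from -0.23 in intercalated cells to 0.46 in the thin limb. The podocyte list had a median of -0.22, and 3 of its genes had an unadjusted p under 0.05 and non-overlapping groups, each lower in I/R. Over all genes, 4.59% were lower at that p and 7.19% were lower without overlap. No podocyte gene passed edgeR's adjusted test and 1 passed DESeq2's. Nphs1, nephrin, an adhesion protein of the slit diaphragm between podocytes, was at 119, 126 and 125 CPM across the sham libraries and 108, 91.7 and 78.3 across the I/R libraries (log2 fold change -0.42 ± 0.14, edgeR adjusted p = 0.381). Tcf21, a podocyte transcription factor, was at 32.1, 29.3 and 35.8 CPM across the sham libraries and 24.2, 26.4 and 22.6 across the I/R libraries (adjusted p = 0.308). Both genes were lower in every I/R library, and Nphs1 reached its lowest value in I/R 3. Nes, nestin, was at 108, 125 and 116 CPM in sham and 112, 94.2 and 70.9 in I/R, where I/R 1 overlapped sham. Podxl, podocalyxin of the glycocalyx, was at 337, 312 and 316 in sham and 335, 253 and 238 in I/R, and again only I/R 2 and I/R 3 lay under sham. Summed over the list, podocyte CPM was 1782, 1754 and 1625 in sham and 1654, 1446 and 1263 in I/R. Without I/R 1 and sham 3 the median was -0.39 and 8 of 13 genes had an unadjusted p under 0.05. Sham 3 held the lowest sham sum and I/R 1 the highest I/R sum, so leaving them out lowers I/R over sham by construction. With 1 library left out the count at that p ranged from 2 to 8. The share of glomeruli in each piece of tissue was not measured, and its part in the result was not tested.

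The early proximal tubule list had 24 measured genes, a median of 0.06, 2 genes at an unadjusted p under 0.05 higher in I/R and 1 lower, with none passing an adjusted test in edgeR or DESeq2. Slc5a12, a lactate carrier, was at 263, 275 and 339 CPM in sham and 436, 376 and 293 in I/R, and Slc5a2, the glucose carrier SGLT2, at 392, 514 and 544 in sham and 545, 526 and 389 in I/R. Slc6a19, the neutral amino acid carrier, was at 135, 159 and 202 CPM across the sham libraries and 252, 257 and 189 across the I/R libraries (unadjusted p = 0.0138), with I/R 3 inside the sham range. Slc34a3, a phosphate carrier, was at 122, 130.01 and 161 in sham and 191, 182 and 143 in I/R. Cubn, cubilin, the receptor partner of megalin in protein uptake, was at 774, 638 and 1049 in sham and 900.02, 1117 and 1179 in I/R. Lrp2, megalin itself, was at 2975, 2738 and 3497 in sham and 3229, 3256 and 3144 in I/R, and Slc34a1, the main apical phosphate carrier, at 2506, 3074 and 3797 in sham and 3294, 3584 and 2815 in I/R, so both overlapped. Miox, the inositol oxygenase of the proximal tubule, had the lowest fitted value of the named genes, at 1670, 2194 and 2955 CPM across the sham libraries and 1695, 1646 and 1264 across the I/R libraries (unadjusted p = 0.0147). Its I/R 1 value lay inside the sham range.

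The straight segment list (17 IDs, median 0.17) held the called Acsm3 and Acsm2 and genes on both sides of 0. Slc22a2, the basolateral cation carrier OCT2, was at 142, 207 and 202 CPM across the sham libraries and 101, 140.5 and 118 across the I/R libraries (log2 fold change -0.62 ± 0.16, edgeR adjusted p = 0.273). Slc17a3, an apical anion and urate carrier, was at 164, 194 and 225 CPM across the sham libraries and 139.6, 138 and 114 across the I/R libraries (adjusted p = 0.276). Both were lower in every I/R library, and DESeq2 called both of them. Slc22a7, the anion carrier OAT2, was at 40.8, 25.1 and 34.8 CPM across the sham libraries and 24.4, 70.99 and 141 across the I/R libraries, where I/R 1 was the lowest and I/R 3 the highest of all 6 libraries. Slc22a8, OAT3, was at 804, 1004 and 870.2 in sham and 841, 893 and 649 in I/R. Several genes of this list shared the height of I/R 3: Mep1a, a meprin protease of the brush border, was at 434, 337 and 418 CPM in sham and 399, 612 and 888 in I/R, and Slc7a13, the cystine carrier partner of rBAT, at 539, 253 and 309 in sham and 271, 586 and 1310 in I/R. Slc7a13 was chosen after its values were seen. The list's median ranged from 0.08 to 0.25 with 1 library left out.

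In the thin limb list (7 genes, median 0.46), Epha7, an ephrin receptor, was at 9.86, 8.92 and 10.98 CPM across the sham libraries and 16.3, 14.5 and 11.6 across the I/R libraries (unadjusted p = 0.00687), higher in every I/R library. Akr1b1, aldose reductase, which makes the osmolyte sorbitol, was at 22.3, 22.9 and 30.7 in sham and 20.2, 21.7 and 18.7 in I/R, lower in every I/R library. The list's median ranged from -0.08 to 0.46 with 1 library left out. The thick ascending limb list (15 genes, median 0.06) held the called Gp2, and no other gene of the list passed the test. Slc12a1, the NKCC2 carrier that loop diuretics block, was at 615, 558 and 542 CPM in sham and 583, 584 and 1160 in I/R, apart in I/R 3 alone. Cldn16, the claudin of paracellular magnesium transport, was at 19.01, 13.9 and 16.2 in sham and 18.6, 21.3 and 25.3 in I/R (unadjusted p = 0.0298), and Cldn19, its partner, at 14.4, 12.2 and 11.6 in sham and 14.1, 15.8 and 25.3 in I/R.

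The distal convoluted tubule list had 13 genes and a median of -0.10. Slc12a3, the thiazide-sensitive NCC carrier, was at 463, 451 and 572 CPM in sham and 474, 408 and 305 in I/R, and Trpm6, the magnesium channel, at 36.5, 31.8 and 35.5 in sham and 37.4, 28.6 and 30.8 in I/R. Both pairs of groups overlapped. Atp2b4, a calcium pump, was at 80.8, 60.9 and 76.3 in sham and 92.03, 82.2 and 120.4 in I/R (unadjusted p = 0.0177), above sham in every I/R library. In principal cells, which take up sodium through ENaC and water through aquaporins, 11 of 14 genes had fitted values below 0 (median -0.17; 4 lower and 1 higher at an unadjusted p under 0.05; none by an adjusted test in edgeR or DESeq2). Scnn1a, the alpha subunit of ENaC, was at 92.2, 97.1 and 107 CPM across the sham libraries and 79.7, 79.7 and 81.2 across the I/R libraries (unadjusted p = 0.0119), and Kcne1, a potassium channel subunit, at 6.84, 9.003 and 8.05 in sham and 5.37, 5.25 and 3.92 in I/R. The I/R groups of both lay under sham. Avpr2, the vasopressin receptor, was at 7.88, 7.08 and 11.7 in sham and 7.08, 5.72 and 4.59 in I/R, and Aqp3, the basolateral water channel, at 87.9, 105 and 122 in sham and 89.8, 70.6 and 73.9 in I/R, each with an overlap. Aqp2, the apical water channel, was at 199.5, 218 and 226 in sham and 202, 198 and 175 in I/R. Sgk1, the aldosterone-induced kinase that raises ENaC activity, was at 303, 375 and 295 in sham and 527, 437 and 341 in I/R (unadjusted p = 0.0292).

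Intercalated cells, which secrete acid or base, had 12 of 16 genes with fitted values below 0 and a median of -0.23. Of these, 3 were lower at an unadjusted p under 0.05, none by edgeR's adjusted test and 1 by DESeq2. Rhcg, the ammonia channel, was at 151, 159 and 146 CPM across the sham libraries and 118, 133 and 111 across the I/R libraries (log2 fold change -0.33 ± 0.09, edgeR adjusted p = 0.293), lower in every I/R library. Atp6v1b1, the B1 subunit of the proton pump, was at 158, 175 and 136 CPM in sham and 107, 137 and 113 in I/R, where I/R 2 just overlapped sham 3. Slc26a4, pendrin, the anion exchanger of base-secreting cells, was at 219, 225 and 184 in sham and 159, 190.1 and 126 in I/R. Atp6v1c2 and Atp6v0d2, other subunits of the pump, had log2 fold changes of -0.40 and -0.24. With 1 library left out, the count at an unadjusted p under 0.05 ranged from 1 to 6 and the median from -0.32 to -0.16.

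**Figure D3:**
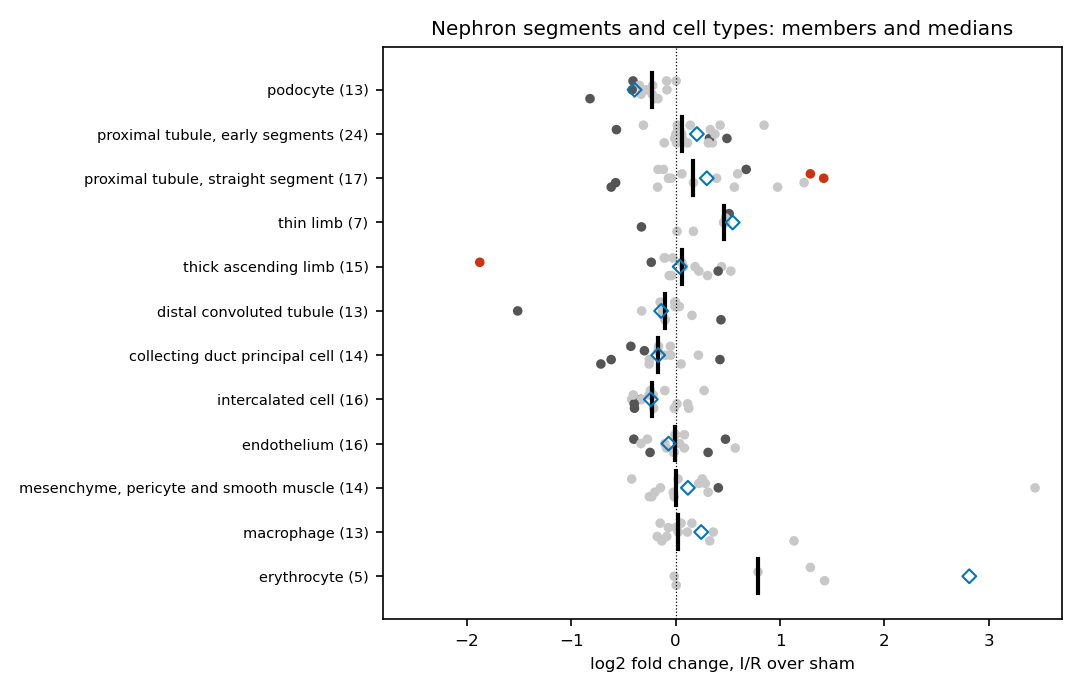
Log2 fold change, I/R over sham, of each measured gene in lists of nephron segments and other kidney cells with at least 5 measured IDs (red, called by edgeR; dark grey, unadjusted p under 0.05; light grey, other; black bar, median; blue open diamond, median without I/R 1 and sham 3; number of IDs in brackets). The podocyte points lie almost all below 0 with a median of -0.22, the erythrocyte diamond lies at 2.81, far from its bar at 0.79, and most other medians lie near 0.

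Among cells outside the tubule, endothelial genes had a median of -0.01 over 16 genes, with 2 higher and 2 lower at an unadjusted p under 0.05. Tie1, an endothelial receptor that modulates angiopoietin signals, was at 67.02, 61.5 and 42.99 CPM across the sham libraries and 79.7, 80.5 and 78.6 across the I/R libraries (unadjusted p = 0.00534), and Cdh5, VE-cadherin of endothelial junctions, at 27.1, 26.7 and 27.2 in sham and 38.02, 31.7 and 30.9 in I/R. Both were higher in every I/R library. Esm1, a secreted product of endothelial cells, was at 22.9, 26.97 and 23.1 in sham and 21.05, 18.5 and 15.7 in I/R, and Flt1, the VEGF receptor 1, at 72.9, 80.5 and 81.3 in sham and 71.3, 63.2 and 63.6 in I/R, both lower in every I/R library, while Pecam1 and Kdr overlapped. Summed endothelial CPM was 1050, 1074 and 1064 in sham and 1072, 1048 and 1033 in I/R, which overlap. The mesenchymal list (14 genes, median 0.01) included Rgs5, a pericyte signal regulator, at 22.3, 18.1 and 28.02 in sham and 31.96, 26.5 and 32.4 in I/R, and Pdgfrb at 73.03, 59.9 and 71.1 in sham and 87.7, 77.2 and 73.00 in I/R. Akr1b7, an aldose reductase of renin-lineage and adrenal cells, ran from 0.615 CPM in sham 3 to 159 in I/R 3 without separating the groups.

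Macrophage genes had a median of 0.02 over 13 genes, and none had an unadjusted p under 0.05 or passed an adjusted test in edgeR or DESeq2. The median was 0.24 without I/R 1 and sham 3, with 13 of 13 genes above 0 and 4 higher at an unadjusted p under 0.05. Without sham 3 alone it was 0.21, with 3 higher at that p, and with any 1 library left out it ranged from -0.09 to 0.21. Sham 3 held the highest summed macrophage CPM, 728, so leaving it out raises the median by construction. Cd68 was at 3.38, 2.63 and 6.67 CPM in sham and 5.09, 5.52 and 5.69 in I/R, and Csf1r, the receptor for macrophage growth factor, at 21.9, 21.3 and 44.8 in sham and 32.2, 27.1 and 32.00 in I/R. Fcer1g, a signalling chain of Fc receptors, was at 61.1, 74.9 and 102 in sham and 195, 227 and 99.9 in I/R, where I/R 1 and I/R 2 were high and I/R 3 lay under sham 3. Only Cd8a and Coro1a of 18 lymphocyte and neutrophil genes were measured by name, Cd8a at 2.04, 2.51 and 3.26 CPM in sham and 2.37, 2.51 and 1.45 in I/R. Erythrocyte transcripts differed more among sham libraries than between groups. Hbb was at 127, 97.5 and 1023 CPM in sham and 501, 1426 and 1425 in I/R, and the list's median log2 fold change of 0.79 became 2.81 without I/R 1 and sham 3. For this list sham 3 held the highest sham sum and I/R 1 the lowest I/R sum, so that shift follows from the omission.

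Basement membrane genes had higher values in I/R. Of 23 measured, 10 had an unadjusted p under 0.05, all higher in I/R, against 4.83% of all genes higher at that p. Without overlap, 10 had I/R above sham, against 7.43% of all genes, and none had the reverse order. In edgeR's adjusted test 2 passed, Col15a1 and Lamc3, against 0.0346% of all genes called higher. The median log2 fold change was 0.20, with 20 genes above 0. Nid1, nidogen 1, which links laminin to type IV collagen, was at 94.3, 75.1 and 94.9 CPM across the sham libraries and 123, 126 and 173 across the I/R libraries (log2 fold change 0.68 ± 0.14, adjusted p = 0.203). Lama4, the laminin chain of vessel walls, was at 14.96, 14.9 and 14.8 CPM across the sham libraries and 21.4, 18.3 and 19.1 across the I/R libraries (adjusted p = 0.288). Both were higher in every I/R library. Hspg2, perlecan, the large heparan sulfate proteoglycan, was at 75.2, 58.7 and 79.4 CPM in sham and 112, 91.2 and 88.7 in I/R. Col4a5, of the mature type IV collagen network, Agrn, Lama1, Lamc1 and Nid2 had log2 fold changes of 0.27, 0.41, 0.58, 0.29 and 0.30. Col4a1 and Col4a2, the chains found in every basement membrane, had fold changes of 0.14 and 0.19 with overlap. Without I/R 1 and sham 3, 13 of 23 genes had an unadjusted p under 0.05, and 8 to 13 did with 1 library left out. The 23 genes had a median implied transcript length of 7424 bases, against 3203 over all genes with a length, and fold changes were higher for longer transcripts over all genes, as given with the ribosomal proteins below. After the length trend was removed (limma on log2 CPM), 9 of the 23 genes had an unadjusted p under 0.05, all higher in I/R, and the median was 0.18, against 0.20 in edgeR's fit without removal.

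Of 26 interstitial matrix and fibrosis genes, 7 had an unadjusted p under 0.05, all higher in I/R, and Serpine2 alone was called. Mmp9, gelatinase B, which cuts type IV collagen, was at 12.2, 10.1 and 12.3 CPM across the sham libraries and 44.2, 40.8 and 29.98 across the I/R libraries, without overlap but with an edgeR adjusted p of 0.423. Timp3, a matrix-bound inhibitor of metalloproteinases, was at 397, 356 and 444 CPM across the sham libraries and 526, 547 and 517 across the I/R libraries (adjusted p = 0.298), and Sparc, a collagen-binding glycoprotein, at 362, 333 and 346 in sham and 516, 448 and 398 in I/R. Each was higher in every I/R library. Tgfbi, a matrix protein induced by TGF-beta, was at 19.00, 14.9 and 13.8 in sham and 19.8, 25.2 and 42.3 in I/R, highest in I/R 3. The fibrillar collagens did not separate: Col1a1 was at 90.8, 22.4 and 47.6 in sham and 80.5, 59.8 and 55.5 in I/R and Col3a1 at 68.8, 53.3 and 174 in sham and 136, 117 and 114 in I/R. The list's median was 0.15 in all 6 libraries, 0.42 without I/R 1 and sham 3, and -0.02 to 0.38 with 1 library left out. In summed CPM of this list, sham 3 was the highest sham library and I/R 1 the lowest I/R library. Leaving out both therefore raises I/R over sham by construction.

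Injury markers measured by name showed no common direction. Of 22 measured, 3 were higher and 3 lower at an unadjusted p under 0.05, none by an adjusted test in edgeR or DESeq2, with a median of -0.08. Spp1, osteopontin, a secreted phosphoprotein of injured tubules, was at 125, 132 and 129 CPM across the sham libraries and 199, 214 and 674 across the I/R libraries (log2 fold change 1.49 ± 0.58, edgeR adjusted p = 0.501). Every I/R library lay above sham, and I/R 3 was the highest by far. Lcn2, the lipocalin known as NGAL, was at 1.76, 2.57 and 5.24 CPM in sham and 3.68, 1.82 and 3.06 in I/R, low in all libraries. Anxa1, annexin A1, was at 101, 116 and 99.9 in sham and 71.1, 85.8 and 88.2 in I/R, S100a6, a calcium-binding protein of dedifferentiated cells, at 17.7, 19.97 and 13.4 in sham and 10.1, 12.9 and 11.1 in I/R, and Gdf15, a stress hormone of the TGF-beta family, at 7.55, 18.5 and 24.9 in sham and 4.58, 10.1 and 8.70 in I/R. The first 2 were lower in every I/R library. Itgb6, the epithelial integrin that activates TGF-beta, was at 71.2, 58.5 and 68.01 in sham and 79.4, 86.7 and 109.5 in I/R, higher in every I/R library. Clu, clusterin, was at 89.4, 101 and 229 in sham and 125, 57.8 and 59.2 in I/R, highest in sham 3. Havcr1, which encodes KIM-1, has no named row in the tables used and is not analysed here.

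Of the 6 cell cycle genes measured by name, Ccnd1, cyclin D1, was at 69.2, 65.3 and 76.5 CPM across the sham libraries and 99.7, 88.9 and 122 across the I/R libraries (unadjusted p = 0.00785), and Stmn1, a microtubule regulator of dividing cells, at 41.02, 46.5 and 37.9 in sham and 46.6, 59.6 and 59.2 in I/R (unadjusted p = 0.00768). Ccnd1 was higher in every I/R library. Stmn1 was higher too, with I/R 1 only just above sham 2. The list held 22 cell cycle genes, and the others, among them Mki67 and Top2a, were not measured by name. Pcna, the replication clamp, was at 40.3, 43.9 and 38.8 in sham and 32.05, 41.5 and 40.8 in I/R, and Mcm2 of the replication helicase at 12.7, 10.9 and 12.7 in sham and 14.8, 12.9 and 12.7 in I/R. Of 20 p53 targets and apoptosis genes (median 0.04), Bcl2l1, the survival gene Bcl-xL, was at 170.2, 167 and 179 CPM across the sham libraries and 148, 124 and 135 across the I/R libraries (unadjusted p = 0.00204) and was called by DESeq2. Cdkn1a, p21, was at 4.99, 4.86 and 7.05 in sham and 4.55, 4.58 and 4.85 in I/R, and Mdm2 at 45.7, 52.6 and 44.8 in sham and 57.3, 53.5 and 47.2 in I/R.

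The 28 genes of fatty acid oxidation had a median of -0.01 and split evenly around 0. Of these, 4 were higher and 1 lower at an unadjusted p under 0.05. Cpt1a, which makes the acylcarnitine that enters mitochondria, was at 157, 136 and 135 CPM across the sham libraries and 196, 205 and 204 across the I/R libraries (log2 fold change 0.50 ± 0.09, edgeR adjusted p = 0.105). Ppara, the nuclear receptor that drives this pathway, was at 16.8, 16.6 and 13.3 CPM across the sham libraries and 33.04, 23.3 and 21.5 across the I/R libraries (adjusted p = 0.288). Oxct1, which activates ketone bodies for burning, was at 734, 784 and 659 CPM in sham and 847, 1037 and 1027 in I/R. All 3 were higher in every I/R library and were called by DESeq2. Crat, carnitine acetyltransferase, was at 126, 123 and 126 in sham and 136, 157 and 151 in I/R, also without overlap. Cpt2, the inner membrane partner of Cpt1a, had a log2 fold change of 0.11 and Acadm, the medium-chain dehydrogenase, of -0.06. The peroxisome list (19 genes, median 0.06) included Hao2, a hydroxyacid oxidase, at 5157, 6418 and 5223 CPM across the sham libraries and 4648, 4115 and 3516 across the I/R libraries (unadjusted p = 0.012), lower in every I/R library, and Cat, catalase, at 845, 774 and 1101 in sham and 1043, 1094 and 1085 in I/R.

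Few respiratory chain genes separated the groups. Without overlap, 1 nuclear ID lay higher in I/R and 1 mitochondrially encoded gene lay lower, and the rest overlapped. Of 40 nuclear IDs of oxidative phosphorylation, 27 lay below 0 with a median of -0.06, none had an unadjusted p under 0.05 and none passed an adjusted test in edgeR or DESeq2. Genes of the mitochondrial genome, 13 in all, had a median of -0.02 and summed to 167480, 162098 and 162353 CPM in sham and 165643, 164644 and 142033 in I/R, lowest in I/R 3. The 20 genes of the tricarboxylic acid cycle had a median of 0.02. Gluconeogenesis and ammonia production, functions of the proximal tubule, had a median of 0.13 over 14 genes, with Pck1, the rate-limiting enzyme of glucose release, at 5029, 6910 and 4354 CPM in sham and 6390, 8166 and 5694 in I/R. Glycolysis and hypoxia genes had a median of -0.12 over 23 genes. Ldha, which makes lactate, was at 146, 159 and 157 CPM across the sham libraries and 115, 129 and 128 across the I/R libraries (unadjusted p = 0.00556), lower in every I/R library, whereas Pdk1, which blocks pyruvate entry to mitochondria, was at 9.19, 9.42 and 5.99 in sham and 10.7, 11.2 and 10.7 in I/R, higher in every I/R library.

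Detoxification genes held the called Gstm7 and had members in both directions. Of 25 glutathione and NRF2 genes, 4 were lower and 1 higher at an unadjusted p under 0.05 (median -0.06). Gsta4, a transferase for lipid peroxidation products, was at 194, 227 and 229 CPM across the sham libraries and 134, 166 and 155 across the I/R libraries (adjusted p = 0.298), and Gsta2 at 835, 1141 and 965 in sham and 676, 743 and 551 in I/R. Both were lower in every I/R library. Gpx2, a glutathione peroxidase, was at 3.03, 2.86 and 2.99 in sham and 4.04, 5.11 and 4.97 in I/R, higher in every I/R library. Gclc, the catalytic subunit of the enzyme that starts glutathione synthesis, was at 1639, 878 and 933 CPM in sham and 739.8, 1537 and 3008 in I/R, highest in I/R 3. Among organic ion carriers and drug enzymes (23 genes, median 0.02), Cyp4a8, a fatty acid hydroxylase, was at 552, 505 and 502 CPM across the sham libraries and 674, 975 and 1132 across the I/R libraries (unadjusted p = 0.00549), higher in every I/R library. In the iron list (14 IDs, median -0.09), Acsl4, which loads arachidonate into lipids and sensitizes cells to ferroptosis, was at 78.6, 87.2 and 86.6 CPM across the sham libraries and 92.5, 104 and 105 across the I/R libraries (unadjusted p = 0.0106), higher in every I/R library. Tfrc, the transferrin receptor, was at 58.3, 62.5 and 59.9 in sham and 43.1, 53.5 and 53.7 in I/R, lower in every I/R library.

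Most interferon-response genes had higher fitted values in I/R, but few separated the groups. Of 25 measured, 21 lay above 0 with a median of 0.28, and 7 had an unadjusted p under 0.05, all higher. Only 3 had I/R above sham without overlap, against 7.43% of all genes, and none had the reverse order. None passed edgeR's adjusted test and 1 passed DESeq2's. Irf7, the transcription factor that amplifies type I interferon, was at 11.5, 12.4 and 19.2 CPM across the sham libraries and 22.9, 30.95 and 28.9 across the I/R libraries (log2 fold change 0.94 ± 0.28, edgeR adjusted p = 0.349). Mx2, an antiviral GTPase, was at 6.35, 5.71 and 11.97 CPM across the sham libraries and 12.7, 13.98 and 17.3 across the I/R libraries (adjusted p = 0.349), and Trim25, a ubiquitin ligase of RNA sensing, at 17.2, 14.1 and 15.8 in sham and 19.4, 22.7 and 27.01 in I/R. Each was higher in every I/R library. Gbp2, a guanylate-binding protein, was at 10.4, 10.2 and 13.6 in sham and 13.4, 19.4 and 20.98 in I/R, and Ifit3 at 3.74, 5.06 and 8.35 in sham and 6.79, 14.4 and 13.8 in I/R, where I/R 1 overlapped sham 3. Summed interferon CPM was 368, 355 and 528 in sham and 458, 510.3 and 528 in I/R, so sham 3 reached the I/R range. Without I/R 1 and sham 3, 16 of 25 genes had an unadjusted p under 0.05 and the median was 0.48. Sham 3 held the highest sham sum and I/R 1 the lowest I/R sum, so leaving them out raises I/R over sham by construction. With 1 library left out the count at that p ranged from 4 to 15.

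The start region of Irf7 in GRCr8 (chr1:205799974-205800273, minus strand) is shown because Irf7, a member of the list, encodes a transcription factor of the interferon response. Capitals mark its 1 match to the core of the interferon-stimulated response element, searched as GAAA, any pair of bases and GAAA, here on the other strand as TTTC, any pair and TTTC.
Irf7: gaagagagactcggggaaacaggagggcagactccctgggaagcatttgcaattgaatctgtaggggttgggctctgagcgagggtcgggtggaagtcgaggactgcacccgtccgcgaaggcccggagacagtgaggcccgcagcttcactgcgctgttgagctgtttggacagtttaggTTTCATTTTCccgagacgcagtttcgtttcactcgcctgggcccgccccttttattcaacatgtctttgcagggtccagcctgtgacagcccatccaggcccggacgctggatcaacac
Of the 22 interferon-response genes with a RefSeq promoter window, 15 held this core on either strand, against 3.77% of all 27457 windows. The list was drawn from known interferon targets, so the motif describes the list and was not related to its fold changes.

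Antigen presentation genes had values in both directions. RT1-S3, a class I gene of the rat MHC, was at 46.3, 50.7 and 53.5 CPM in sham and 63.1, 71.4 and 77.2 in I/R, and RT1-T24-4, another, at 40.8, 43.1 and 42.9 in sham and 53.5, 60.2 and 65.7 in I/R. Both were higher in every I/R library and called by DESeq2. RT1-A1, a classical class I gene, was at 17.1, 19.01 and 19.6 CPM across the sham libraries and 15.3, 10.96 and 12.5 across the I/R libraries (edgeR adjusted p = 0.283), lower in every I/R library. Class I genes are near copies of each other, so their separate values are uncertain. Tap1, which pumps peptides to class I molecules, was at 11.8, 12.2 and 10.7 in sham and 13.3, 17.4 and 19.7 in I/R, higher in every I/R library, and B2m, the shared light chain, at 767, 871 and 869 in sham and 787, 759 and 644 in I/R. Class II genes had a median of -0.11 over 10 genes, with Cd74, the invariant chain, at 526, 606 and 489 in sham and 471, 429 and 415 in I/R. NF-kB and cytokine genes had a median of 0.03 over 16 genes. Il18, an inflammasome cytokine, was at 7.64, 8.87 and 6.27 CPM across the sham libraries and 4.51, 5.25 and 3.42 across the I/R libraries (unadjusted p = 0.0032), lower in every I/R library. Complement genes (16, median -0.11) had their highest summed CPM in sham 3, where C7, a component of the membrane attack complex, stood at 2359 CPM against 489 to 641 in the other libraries. C1s, a protease of the classical pathway, was also highest there, at 178 CPM against 71.6 to 88.8 in the other libraries. Cd55, a regulator that protects cells from complement, was at 27.03, 28.9 and 20.4 in sham and 34.7, 39.9 and 36.01 in I/R, higher in every I/R library (unadjusted p = 0.00935).

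Of 18 clock genes measured, 12 had fitted values above 0 and 6 below. Of them, 6 had an unadjusted p under 0.05, all higher, against 4.83% of all genes higher at that p. Without overlap, 7 had I/R above sham, against 7.43% of all genes. None was called by edgeR or DESeq2, and the median was 0.16. Per1, a repressor of the clock loop that also answers to glucocorticoids, was at 137, 106 and 98.8 CPM across the sham libraries and 145, 156 and 163 across the I/R libraries (log2 fold change 0.44 ± 0.13, edgeR adjusted p = 0.298). Per3 was at 59.2, 36.2 and 39.5 CPM across the sham libraries and 62.2, 59.6 and 62.3 across the I/R libraries and Per2 at 95.1, 81.3 and 75.1 in sham and 111, 103 and 93.5 in I/R. Per1 and Per3 were higher in every I/R library, and Per2 overlapped in sham 1 and I/R 3. Clock itself was at 63.95, 54.1 and 69.6 in sham and 67.3, 55.3 and 48.2 in I/R, which overlap. Summed clock CPM was 1355, 1290 and 1319 in sham and 1473, 1524 and 1478 in I/R and did not overlap. With 1 library left out, 3 to 5 genes had an unadjusted p under 0.05. Collection times are not given, so time of day and group cannot be told apart.

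Ciart, a clock-controlled repressor, was at 9.30, 11.3 and 8.08 CPM across the sham libraries and 11.99, 25.6 and 21.8 across the I/R libraries, low in I/R 1 and high in I/R 2 and I/R 3. Its start region in GRCr8 (chr2:186112197-186112496, minus strand) is shown because it holds 3 copies of the E-box CACGTG, in capitals, the site bound by CLOCK and BMAL1.
Ciart: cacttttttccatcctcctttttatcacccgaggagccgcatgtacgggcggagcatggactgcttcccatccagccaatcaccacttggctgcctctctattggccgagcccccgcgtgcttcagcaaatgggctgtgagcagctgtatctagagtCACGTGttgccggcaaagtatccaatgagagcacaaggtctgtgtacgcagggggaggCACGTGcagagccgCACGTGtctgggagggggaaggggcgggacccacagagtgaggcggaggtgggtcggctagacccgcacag
Among the 14 clock genes with a promoter window, 4 held this E-box, Ciart, Tef, Bhlhe41 and Bhlhe40, against 6.65% of all windows. Ciart was chosen for display after its motif count was seen. The motif count describes the list and was not related to its fold changes.

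Sterol synthesis had values in both directions, more of them higher in I/R. Of 26 measured genes, 11 were higher and 2 lower at an unadjusted p under 0.05, with a median of 0.21, none called by edgeR and 3 by DESeq2. KEGG pathways annotated in the deposited table did not show this rise. Terpenoid backbone biosynthesis had a median of -0.02 over 21 genes, 3 higher and 3 lower at that p. Cholesterol metabolism had a median of -0.05 over 32 genes, 0 higher and 3 lower. Hmgcs1, a synthase early in the mevalonate pathway, was at 27.2, 31.8 and 35.9 CPM across the sham libraries and 47.7, 42.5 and 44.6 across the I/R libraries (log2 fold change 0.51 ± 0.14, edgeR adjusted p = 0.293), and Idi1, which makes the isoprenoid unit for chain building, at 14.9, 17.4 and 20.5 in sham and 21.2, 29.1 and 30.5 in I/R. Both were higher in every I/R library. Stard4, a cholesterol carrier, was at 10.4, 9.42 and 11.4 in sham and 15.5, 15.2 and 13.4 in I/R, also without overlap. Mvd, the enzyme that comes just before Idi1, was lower in every I/R library, at 9.26, 11.1 and 10.8 CPM across the sham libraries and 6.70, 7.95 and 7.43 across the I/R libraries (adjusted p = 0.288). The count of higher genes at an unadjusted p under 0.05 was 13 without I/R 1 and sham 3 and 5 to 12 with 1 library left out. In summed CPM of this list, sham 3 was the highest sham library and I/R 1 the lowest I/R library. Leaving out both therefore raises I/R over sham by construction. Of the 17 genes of this list with a promoter window, 0 held the sterol regulatory element, searched as TCAC, any base and CCAC, against 1.13% of all windows.

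Ribosomal protein genes had lower values in I/R almost as a block. All 54 measured IDs had fitted fold changes below 0, with a median of -0.32 and a range from -0.73 to -0.09. Of these, 34 had an unadjusted p under 0.05, against 4.59% of all genes lower at that p. In 37, every I/R library lay below every sham library, against 7.19% of all genes. None passed edgeR's adjusted test and 2 passed DESeq2's. Rpl8, of the large subunit, was at 42.03, 38.3 and 51.8 CPM across the sham libraries and 23.8, 28.2 and 27.7 across the I/R libraries (log2 fold change -0.73 ± 0.18, edgeR adjusted p = 0.266). Rpl5, which binds MDM2 when ribosome assembly fails, was at 467, 530.2 and 454 CPM across the sham libraries and 326, 382 and 376 across the I/R libraries (adjusted p = 0.293), and Rps23 of the small subunit at 178, 199 and 167 in sham and 124, 153 and 138 in I/R. For all 3 the groups did not overlap, and I/R 1 was the lowest library. Summed over the list, ribosomal protein CPM was 12732, 14496 and 13222 in sham and 9544, 11797 and 11534 in I/R. Without I/R 1 and sham 3, 15 genes had an unadjusted p under 0.05 with a median of -0.25 and 2 genes above 0, and with 1 library left out the count ranged from 10 to 37 and the median from -0.38 to -0.22.

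Fold changes were lower for shorter transcripts over the genes with a length, though not in every class of short RNA. Over 11232 genes with a length worked out by dividing counts by FPKM, log2 fold change and length had a Spearman correlation of 0.30, and of 0.22 without I/R 1 and sham 3. This is a description across genes of the same libraries and carries no test. The ribosomal proteins had a median implied length of 1266 bases, against 3203 over all genes. After the length trend was removed, their median was -0.21, against -0.32 in edgeR's fit without removal. RNA fragmentation or capture was not measured in the files, and its part in the result was not tested.

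The 29 translation factors and ribosome biogenesis genes had a median of -0.16, 8 of them lower at an unadjusted p under 0.05, none higher and none called by edgeR or DESeq2. Eef1b2, which recharges the elongation factor, was at 135, 163 and 147 CPM across the sham libraries and 97.6, 122 and 124 across the I/R libraries (unadjusted p = 0.00765), and Eif3b of the initiation complex at 118, 129.8 and 129 in sham and 98.2, 108 and 109 in I/R. Both were lower in every I/R library. Proteasome genes lay below 0 in 30 of 31 cases, with a median of -0.13 and 3 at an unadjusted p under 0.05, among them Psmc5, an ATPase of the cap, at 81.1, 89.2 and 80.4 in sham and 64.9, 73.7 and 67.8 in I/R. Regulators of mTOR, the kinase that drives ribosome production, had a median of 0.06 over 31 genes. Mtor was at 67.9, 58.7 and 72.4 CPM in sham and 76.5, 76.01 and 69.2 in I/R, and Tsc2, which restrains mTOR complex 1, at 35.7, 26.2 and 34.3 in sham and 40.4, 38.4 and 39.00 in I/R. Sesn2, a stress-induced inhibitor of that complex, was at 105, 106 and 98.6 CPM across the sham libraries and 92.96, 82.6 and 70.4 across the I/R libraries (unadjusted p = 0.00758), lower in every I/R library. Autophagy genes had a median of 0.02 over 33 genes, with Atg12, a conjugated protein of autophagosome growth, at 54.5, 59.7 and 55.2 in sham and 49.1, 46.1 and 46.4 in I/R, lower in every I/R library. Lysosome genes had a median of 0.07 over 28 genes, 4 of them higher at an unadjusted p under 0.05. Atp6v0a1, a subunit of the organelle proton pump, was at 45.9, 40.6 and 47.5 CPM across the sham libraries and 51.96, 66.1 and 60.4 across the I/R libraries (unadjusted p = 0.0021), higher in every I/R library.

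**Figure D4:**
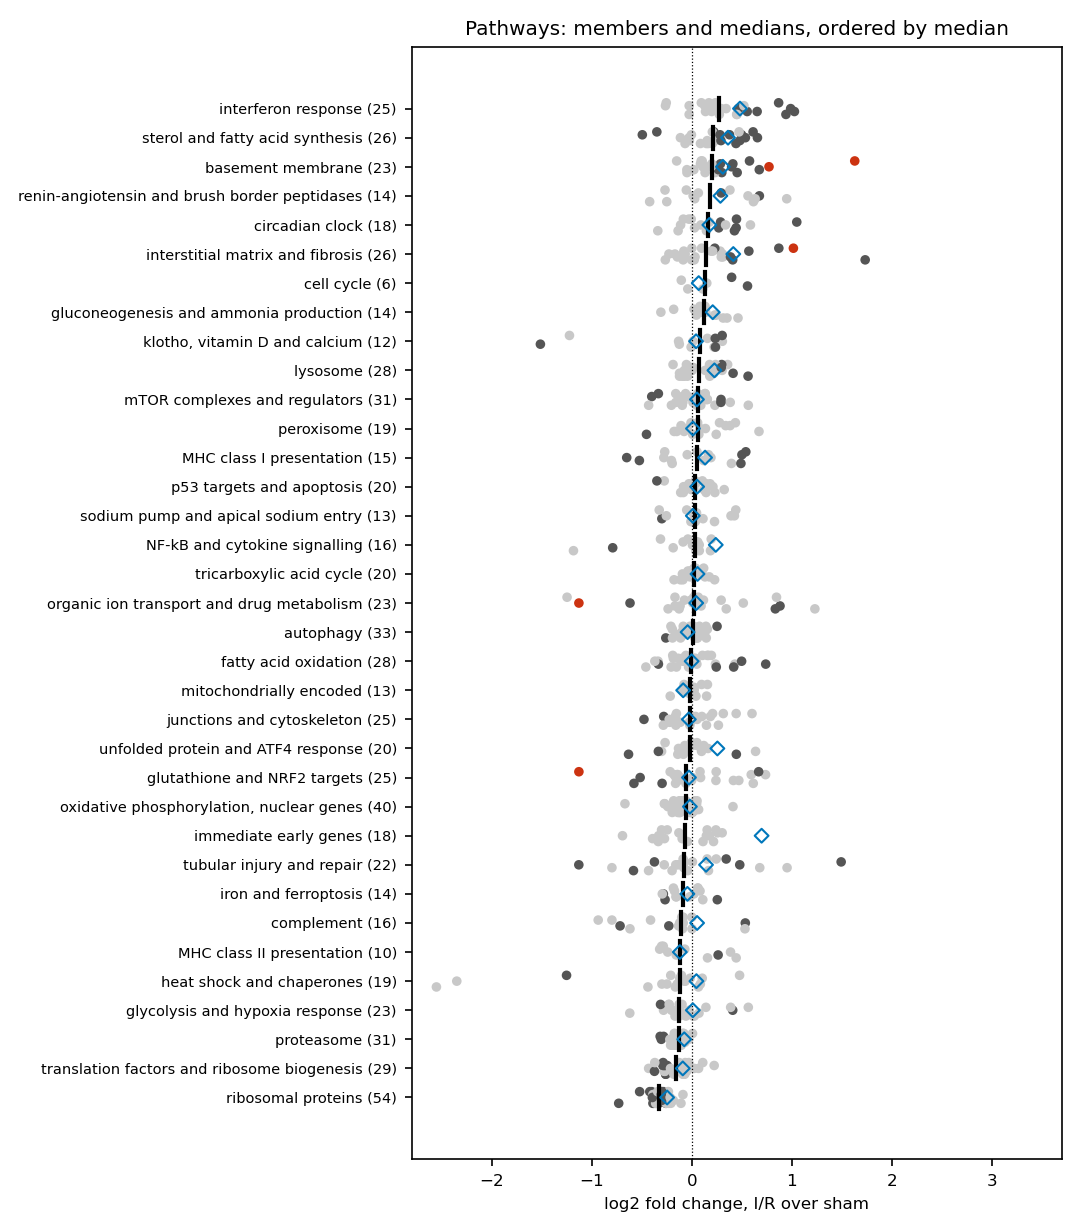
Log2 fold change, I/R over sham, of each measured gene in the pathway lists, drawn as in the plot of segments (red, called; dark grey, unadjusted p under 0.05; light grey, other; black bar, median; blue open diamond, median without I/R 1 and sham 3). Ribosomal protein points all lie below 0, basement membrane and interferon points lie mostly above 0, and the diamond of the immediate early genes lies at 0.70 against a bar at -0.07.

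Immediate early and heat shock genes reached their highest sums in sham 3 and their lowest in I/R 1. The 18 immediate early genes had a median of -0.07 and summed to 1131, 2009 and 3452 CPM in sham and 829.6, 2712 and 2862 in I/R, so the groups overlapped. None had an unadjusted p under 0.05 in all 6 libraries and none passed an adjusted test in edgeR or DESeq2. Without I/R 1 and sham 3 the median was 0.70 and 9 had an unadjusted p under 0.05, all higher in I/R. Those libraries held the lowest and the highest sum, so leaving them out raises I/R over sham by construction. Jun, a partner of Fos, was at 255, 514 and 813 CPM in sham and 166, 562 and 582 in I/R. Among heat shock genes (19, median -0.12), Hspa1b, the inducible HSP70, was at 54.00, 174 and 856 in sham and 22.4, 75.3 and 115 in I/R, and Hspa1a, its near copy, at 28.5, 90.4 and 550.3 in sham and 12.3, 39.3 and 62.6 in I/R, both highest in sham 3. In the unfolded protein and ATF4 list (20, median -0.02), Psph, the last step of serine synthesis, was at 46.8, 64.2 and 45.8 CPM across the sham libraries and 35.6, 35.7 and 30.00 across the I/R libraries (unadjusted p = 0.00561), lower in every I/R library. Herpud1, of endoplasmic reticulum degradation, was at 201, 232 and 177 in sham and 233, 307 and 290.1 in I/R, higher in every I/R library.

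Hormone and transport lists had few separated genes. S100g, calbindin-D9k, a vitamin D target that carries calcium, was at 4.46, 4.88 and 1.76 CPM across the sham libraries and 1.96, 0.803 and 1.12 across the I/R libraries (unadjusted p = 0.00494), with sham 3 next to the I/R values. Kl, klotho, the co-receptor of FGF23, was at 165, 182 and 273 CPM in sham and 279, 227 and 219 in I/R, and Pth1r, the parathyroid hormone receptor, at 347, 376 and 342 in sham and 403, 443 and 409.9 in I/R, higher in every I/R library. Cyp24a1, which degrades vitamin D, was at 397, 498 and 502 in sham and 388, 123 and 87.4 in I/R, low in I/R 2 and I/R 3 and not in I/R 1. In the renin-angiotensin list (14, median 0.18), Dpp4, a brush border peptidase, was at 739, 747 and 856 in sham and 873, 949 and 1050 in I/R, higher in every I/R library (unadjusted p = 0.0385). Of 25 junction and cytoskeleton genes (median -0.02), Cdh1, E-cadherin, was at 135, 162 and 131 CPM across the sham libraries and 129.97, 109 and 113 across the I/R libraries (unadjusted p = 0.0372), lower in every I/R library by a small gap.

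**Figure D5:**
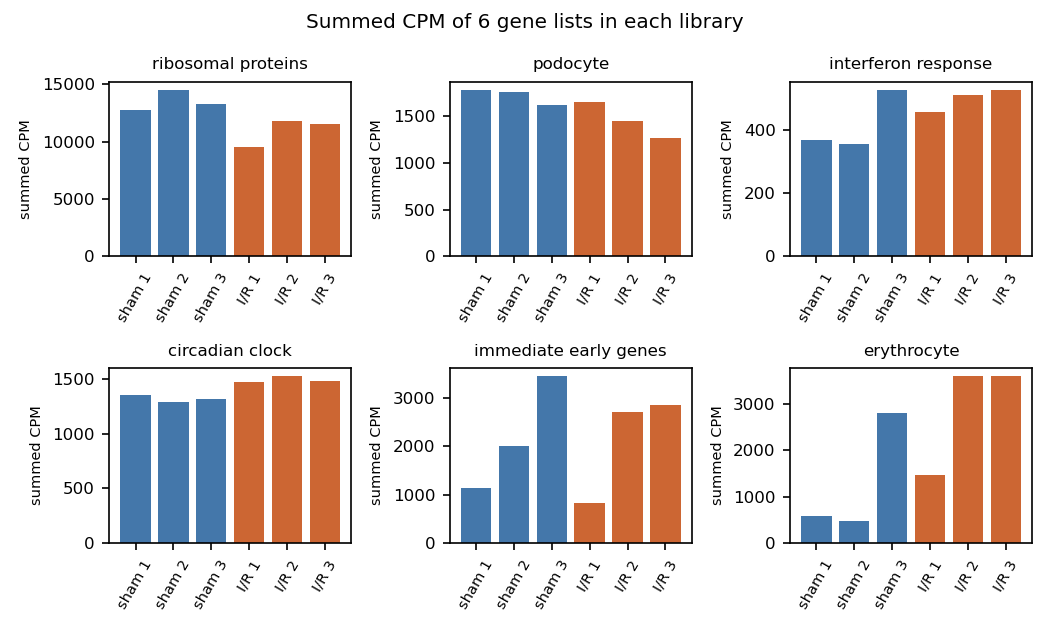
Summed CPM of the measured members of 6 lists in each library (blue, sham; orange, I/R; bars start at 0). Ribosomal proteins and the circadian clock separate the groups, the podocyte and interferon sums overlap by 1 library, and the immediate early and erythrocyte sums are highest or lowest in single libraries of both groups.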

How the data were processed

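Of 9 poly(A) RNA libraries of rat kidney, 6 are compared here. The authors deposited raw read counts per Ensembl gene, as whole numbers, for 30454 IDs. Per the file headers, a second deposited table holds FPKM values (fragments scaled to transcript length and depth), symbols and descriptions for 11235 genes. Each of those reached 1 FPKM in at least 8 libraries, and their counts equal those of the count table. Per the submitters' processing notes, the build was Rnor_6.0 and the tools were HISAT2, StringTie, cutadapt and DESeq2, without versions. The sources used here give no strand setting, annotation or rule of counting. Coordinates of the deposited table do not settle their build, so only gene order is taken from it, and printed coordinates and promoters are RefSeq's in GRCr8, matched by symbol.

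Counts were tested in R 4.3.3 with edgeR 4.0.16 (TMM factors, default filter on low counts, robust quasi-likelihood fit of all 9 libraries without covariates, 17335 genes tested, 10804 with a symbol). A gene was called at an adjusted p under 0.05 (Benjamini-Hochberg), and the SE was taken as the log2 fold change over the root of its F statistic. The test was tested on simulated data. CPM values use TMM-scaled totals, which ran from 51586284 to 60538627 counts before scaling, so that spread between libraries and not counting error limited abundant genes. Libraries of a group differed beyond sampling noise (chi-square per degree of freedom 43.5 to 134), and all were kept as separate replicates. Two-sided tests were used throughout.

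The comparison and its gene lists were chosen with earlier results of these data known. Named genes are the called ones, up to 12 uncalled genes per direction whose groups do not overlap and whose mean reaches 5 CPM, by p, up to 4 members of each list with the smallest p and its first 2 members, and 15 genes given in every case, of which Havcr1 and Mki67 are not named in the tables used. RGD1559600, AABR07005588.1, Eri2, Podxl, Slc7a13, Kdr, Hspg2, Col4a5, Agrn, Lama1, Lamc1, Nid2, Mmp9, Col3a1, Clu, Cdkn1a, Cpt2, Acadm, Ifit3, Ciart, Tef, Bhlhe41, Bhlhe40, Jun, C7 and Cyp24a1 were named after their values were seen, as were the 3 promoters of the chromosome 1 stretch and the KEGG scan. A few members chosen by these criteria were left out of the text. List symbols match 867 of 1035 genes, since the FPKM table alone gives names. Alternatives were other scaling factors, DESeq2 1.42.0, the 6 libraries alone, the replicate number as a block, other filters and thresholds, limma 3.58.1 on log2(FPKM + 1) and log2(FPKM + 0.1), removal of the length trend from log2 CPM by lowess before limma, each library left out in turn, and omission of I/R 1 and sham 3. Counts within lists under these alternatives were added after the data were seen.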

Additional observations from a re-analysis of the deposited data

How the results depend on the processing

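The 10 genes called by edgeR became 9 with DESeq2's size factors (RLE), 10 with upper-quartile factors, 13 with no filter on low counts and 12 with a stricter one, with 9, 10, 10 and 10 of the original genes still called. DESeq2 called 239 and limma on FPKM called 22 with a pseudocount of 1 and 25 with 0.1, and limma on log2 CPM after the length trend was removed called 30, each including all 10. A fit of the 6 libraries alone called 2, of which 1 was among the 10. An adjusted p under 0.01 gave 0 and one under 0.1 gave 19. With 1 library left out the number called ranged from 0 to 36, and 0 to 10 of the original genes were still called. Without I/R 1 and sham 3 it was 67, with 9 of the 10, the lone exception being the only call lost there. None of the 10 changed sign in any of these fits, which made 170 gene and alternative pairs, 111 of them called. The cause of these differences was not tested.

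The values showed no sign that the replicate numbers pair the samples, but 3 libraries a group cannot settle this. The correlations of deviations from the group means were -0.18, 0.11 and -0.15 for libraries 1, 2 and 3. Between libraries of different numbers they ran from -0.12 to 0.23. With the replicate block, 1 gene was called, which was among the 10. Of 50 list medians under 17 alternatives, 67 of 850 values had the other sign. Depth limited genes of few counts, and the spread between 3 libraries limited the others.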

Other observations

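Across 278 KEGG pathways with at least 20 measured members, as annotated in the authors' deposited table, the highest median log2 fold change was that of ECM-receptor interaction, 0.19 over 46 genes. Of those genes 12 had an unadjusted edgeR p under 0.05 and were higher in I/R, none was lower, and 1 was called. Without I/R 1 and sham 3 its median was 0.30. Protein digestion and absorption, which holds many collagens and peptide carriers, followed with 0.14 over 49 genes, of which 7 were higher and none lower at that p. At the other end stood Ribosome with -0.27 over 169 genes, 57 of them lower and 1 higher. Spliceosome had a median of -0.10 over 131 genes, 19 lower and 3 higher, and Protein export -0.10 over 27 genes, 5 lower and none higher. Porphyrin metabolism, the route of haem synthesis and breakdown, had -0.15 over 31 genes and Ferroptosis -0.13 over 40 genes, and these became -0.06 and -0.04 without I/R 1 and sham 3. Pathways share genes and were not tested as sets.

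Transcripts other than messenger RNA were also listed in the FPKM table. The 21 mitochondrial tRNAs had a median log2 fold change of 0.43, with 5 at an unadjusted p under 0.05, and the 45 small nucleolar RNAs a median of 0.20, with 1. The 369 long noncoding RNAs had a median of -0.01, close to -0.01 for 10682 protein-coding genes. The selection of poly(A) RNA and the length of such short transcripts differ from those of messenger RNA, and their part in these values was not tested.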
